A study of Mus musculus with 18 samples.

Results

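Side population cells of the mouse thyroid were compared, gene by gene, with a common RNA pooled from other mouse tissues. Their 6 arrays are 6 of the 18 two-colour arrays of the series and are all those labelled control side population (CSP). On each of them Cy5 carried the RNA of the sorted cells and Cy3 the reference. The CSP cells came from thyroids of C57BL/6 mice of both sexes that had not undergone partial thyroidectomy. The glands had been digested with collagenase and dispase, the cells cultured for 2 days, stained with Hoechst 33342 with and without verapamil, and sorted. The non-side population of the same kind of thyroid, the control main population (CMP, 3 arrays), served as a second sample measured against the same reference. The reference was Ambion Mouse Assorted Total RNA from Swiss Webster mice, and it holds liver, kidney, heart, lung, spleen, thymus, brain, ovary, testicle and embryos of 10 to 12 days. It holds no thyroid, by the labels, and its strain is not that of the cells. The series calls its samples biological replicates, and how many animals went into each was not given. Every array had the same dye orientation, so a dye effect of a probe stays in its ratio.

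Dividing and differentiated cells alike take up the DNA dye Hoechst 33342, and cells that pump it out with ABC transporters of the plasma membrane appear as a dim side population on a cell sorter. Verapamil blocks these pumps, which is how the gate is set. In many tissues the side population is rich in stem or progenitor cells, and endothelial cells, which carry the same pumps, can fall into it. Because the RNA of a sorted population is measured in bulk, fewer cells of a type and less RNA per cell cannot be told apart. A log2 ratio above 0 means more label from the CSP sample than from the reference, and a value of 1 is a 2-fold difference. The ratio therefore depends on what the pool holds as well as on the cells.

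The promoters of 4 genes at the top of the enriched side are shown, since they carry short letters known from factors that act on inflammatory genes. They are reference sequence from RefSeq on build GRCm38.p6, on the strand of the gene, 250 bases before the start and 50 from it on. Capitals mark the AP-1 type letters TGANTCA and the kappa B type letters GGGANTTTC, both searched on either strand; the marked stretches do not overlap.
Il6, chr5:30012864-30013163, plus strand: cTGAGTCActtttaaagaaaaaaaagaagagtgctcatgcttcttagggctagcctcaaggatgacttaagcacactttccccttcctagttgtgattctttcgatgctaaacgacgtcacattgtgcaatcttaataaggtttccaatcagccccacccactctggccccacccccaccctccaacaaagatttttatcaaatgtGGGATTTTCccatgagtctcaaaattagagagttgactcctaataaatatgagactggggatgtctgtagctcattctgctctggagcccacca
Cxcl1, chr5:90890995-90891294, plus strand: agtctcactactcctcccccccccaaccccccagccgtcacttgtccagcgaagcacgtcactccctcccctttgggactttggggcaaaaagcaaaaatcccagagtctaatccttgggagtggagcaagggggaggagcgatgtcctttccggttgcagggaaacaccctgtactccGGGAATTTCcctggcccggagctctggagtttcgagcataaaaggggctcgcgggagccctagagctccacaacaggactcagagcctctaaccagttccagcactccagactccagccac
Mmp3, chr9:7445572-7445871, plus strand: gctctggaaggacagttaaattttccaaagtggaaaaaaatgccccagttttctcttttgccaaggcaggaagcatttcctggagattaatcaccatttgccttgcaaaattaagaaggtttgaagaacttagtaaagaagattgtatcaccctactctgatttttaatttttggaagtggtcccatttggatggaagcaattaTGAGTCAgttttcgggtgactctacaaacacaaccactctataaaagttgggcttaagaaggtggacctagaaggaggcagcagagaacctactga
Sele, chr1:164047984-164048283, plus strand: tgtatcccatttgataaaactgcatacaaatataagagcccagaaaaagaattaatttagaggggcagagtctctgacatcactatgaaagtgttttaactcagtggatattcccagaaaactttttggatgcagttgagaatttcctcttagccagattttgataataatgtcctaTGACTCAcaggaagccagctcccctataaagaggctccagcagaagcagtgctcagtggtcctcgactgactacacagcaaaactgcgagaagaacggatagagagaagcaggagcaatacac
The kappa B type letters began at position -44 from the start in Il6 and at -71 in Cxcl1, and the AP-1 type letters began at -46 in Mmp3 and at -73 in Sele. Among the 16 genes most enriched in CSP, 12 had a promoter in the table. The AP-1 type letters stood in 5 of these 12 (Il6, Mmp3, Sele, Il11 and Selp), and in 8.97% of all 27025 genes with a promoter. The kappa B type letters stood in 3 of the 12 (Il6, Cxcl1 and Lincr), and in 1.29% of all. A match describes the letters and is not a binding site.

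Of 22321 genes tested against the reference, 1248 were higher in CSP by more than 2-fold (5.59%) and 2946 were lower by more than 2-fold (13.2%), by limma's treat test with a margin of 2-fold and a Benjamini-Hochberg adjusted p under 0.05. These are the genes called higher or lower below. The median log2 ratio over all genes tested was -0.11, and the median SD of a gene over the 6 arrays was 0.40. Of the called genes 29.8% were higher. This split moved with the processing. With each array centred on its median in place of loess, 812 genes were higher and 5059 lower (13.8% higher). The authors' own log2 values, with 17968 genes tested, gave 2362 higher and 2790 lower (45.8% higher). With loess and only probes above background in both channels on all 6 arrays, 11622 genes were tested. Of these 1141 were higher and 1427 lower (44.4% higher). Median centring moved the median of all genes from -0.11 to -0.43. Its larger effects on the calls are given beside the gene lists. In lists where it is not named it moved the calls in a direction by at most 2 genes. List medians moved in both directions: the epithelial from 0.11 to -0.69, the follicular from 0.24 to -0.14 and the fibroblast from -0.07 to 0.44. The adipocyte median moved from -1.23 to -2.25 and the brain median from -2.66 to -3.7. The CSP arrays correlated with each other across genes at r of 0.833 to 0.941. In Cy5, 40.7% and 41% of spots were well above background on CSP 1 and CSP 2, which share slide 1, against 61.3% to 70.8% on the other 4, and their Cy5 background was higher (82.5 and 79, against 42 to 43). Without these 2 arrays 1029 genes were called higher and 2707 lower. The 6 arrays lie in pairs on 3 slides, and with the slide as a random block (estimated correlation 0.367) 1029 were higher and 2666 lower. The authors' deposited columns of CSP 2, CSP 3, CSP 4 and CSP 5 correlated best with the scanner files labelled CSP 3, CSP 5, CSP 2 and CSP 4 (r of 0.940 to 0.982, against 0.801 to 0.865 with their own). All 6 columns thus matched a CSP file best, and which numbering is right was not settled; the array numbers here are those of the scanner files.

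The genes furthest above the reference included cytokines and chemokines, adhesion molecules of vessels, matrix enzymes and 2 hormones of the neck glands. Il6, the cytokine interleukin 6, was highest: its log2 ratio lay between 7.31 and 8.24 on the 6 arrays (median 7.55), a mean of 7.63 ± 0.34 (SD, n = 6) or 199-fold (adjusted p = 8.66e-08). All 6 arrays lay far above 0. Its probe lies at chr5:29052734-29052793 on build mm7, as the scanner files give it. Mmp3, the protease stromelysin 1, had a mean of 6.03 (5.06 to 7.35, median 6.12), and Cxcl5, a chemokine for neutrophils, 6.00 (4.70 to 7.27, median 5.78). For Cxcl5 the arrays of slide 1 were the highest, at 7.25 and 7.27, with the other 4 from 4.70 to 5.81. Ptgs2, the inducible cyclooxygenase, had a mean of 5.87 (5.34 to 6.56). Il1rl1, the receptor of interleukin 33, Has1, a hyaluronan synthase, Lincr, and Nfkbiz, a regulator of nuclear factor kappa B, had means of 5.37, 5.15, 5.00 and 4.79. All 16 genes at the top were above the reference on all 6 arrays, since the rule that chose them asks for it, along with signal above background in Cy5 on all 6.

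**Figure D1:**
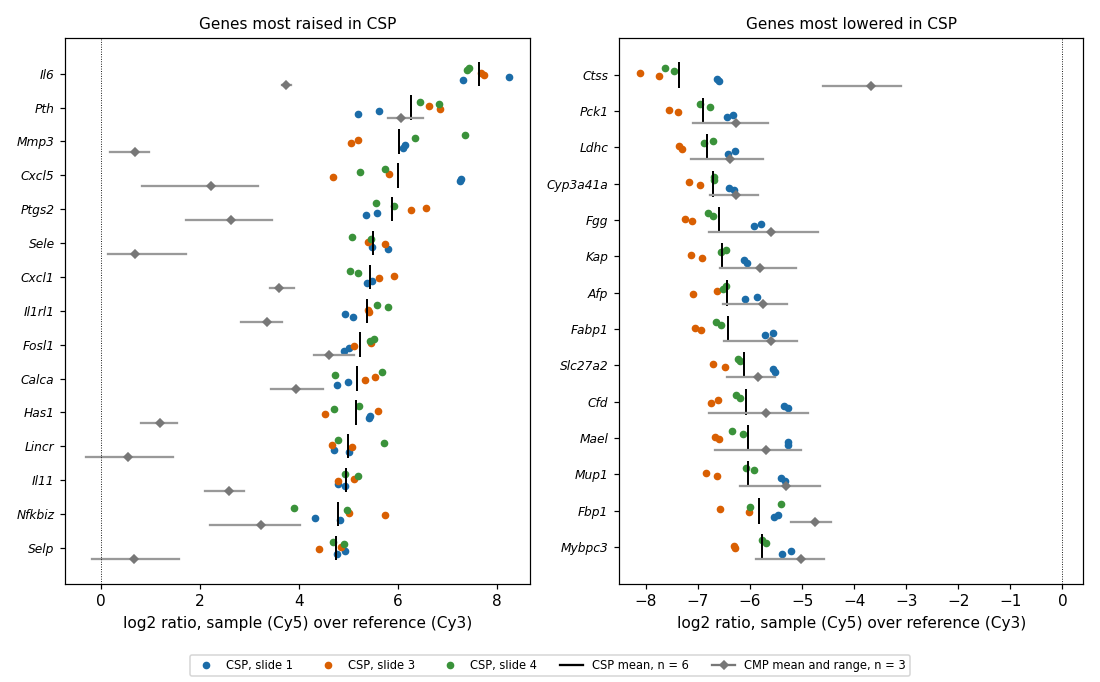
Log2 ratio of sample over reference for 15 of the 16 genes most raised (left) and 14 of the 16 most lowered (right) in CSP; points are the 6 CSP arrays coloured by slide, black bars their mean, and grey diamonds with lines the mean and range of the 3 CMP arrays. Il6 reached 7.63 in CSP with CMP near 3.73, and among the lowered genes Ctss lay furthest from CMP, at -7.36 against -3.67.

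Cytokines and chemokines were the list with the highest median, 2.69 against -0.11 over all genes. Of its 19 members tested, 10 were called higher and 2 lower. Cxcl1, the keratinocyte-derived chemokine, had a mean of 5.43 (5.04 to 5.91) and Il11, a cytokine of the interleukin 6 family, 4.96 with the least spread of the top 16 (4.79 to 5.18). Csf3, the granulocyte growth factor, Ccl7 and Ccl2, attractants of monocytes, Csf1, the macrophage growth factor, and Cxcl2 made up the remaining called members, with means between 2.69 (Cxcl2) and 4.60 (Csf3). The 2 lower members were Ccl5 (-3.05) and Cxcl12 (-2.09), a chemokine of stromal cells; without CSP 3, CSP 4 or CSP 6, or with the slide block, 1 was called. Il1b, the messenger of interleukin 1 beta, was not above background in Cy5 on any CSP array and lay at least 1.93-fold under the reference, without a call. Tnf, tumour necrosis factor, was above background in Cy5 on 1 array, with log2 ratios of -0.13 to 0.12. The list thus held strongly raised members beside members at or under the reference.

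Immediate early genes, the transcription factors and regulators that cells switch on within minutes of a stimulus, were mostly called higher. Of 16 tested, 11 were called higher and none lower, and the list's median was 2.40; 15 of 16 were above 0 on all 6 arrays. Fosl1, the AP-1 subunit Fra-1, had a mean of 5.24 (4.91 to 5.51), Atf3 of 3.72 (3.39 to 3.98) and Fos of 3.50 (3.13 to 3.76). Ier3 followed at 3.42 (2.76 to 4.60). Fosb, Egr2, Zfp36, Myc, Egr1, Dusp1 and Egr3 were called as well, at means between 1.85 and 3.24. Members without a call were Junb, Jund, Fosl2, Jun and Ier2, with means of 0.98 to 1.44. With a margin of 0 in place of 2-fold all 16 were higher.

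Endothelial genes were among the higher calls, led by adhesion molecules of venules. Of 24 tested, 11 were called higher and 2 lower, and the median of the list was 1.68. Sele, E-selectin, which slows rolling leukocytes, had a mean of 5.49 (5.07 to 5.80, median 5.46) or 44.9-fold (adjusted p = 8.66e-08). Selp, P-selectin, had 4.75 (4.41 to 4.93), Emcn, the surface mucin endomucin, 4.39 (3.50 to 5.16), and Ackr1, a chemokine scavenger of venular endothelium, 3.95 (2.85 to 5.00). Aplnr, Robo4, Erg, Esam, Plvap, Flt1 and Vwf were also called, at 2.20 to 2.92. The general endothelial markers stood closer to the pool. Pecam1 had a mean of 1.74 (0.70 to 2.50, adjusted p = 0.0530) and Cdh5, VE-cadherin, 1.45 (0.50 to 2.74, adjusted p = 0.29). Tek and Kdr, the receptors of angiopoietin and of VEGF, had means of 1.00 and -0.05 without a call. Cldn5, a tight junction protein of capillaries, was called lower at -3.17 (-4.28 to -2.49), and so was Mmrn1 at -2.06, above background in Cy5 on 4 of 6 arrays. Of the 24 genes, 23 were above background in Cy5 on all 6 arrays.

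Among stromal lists the mesenchymal transition genes had a median above the pool, and the fibroblast and collagen genes a median near it. Foxc2, a transcription factor of vessels and mesenchyme, had a mean of 4.18 (3.62 to 4.52) and Vim, the intermediate filament vimentin, 2.82 (2.37 to 3.52). Snai1, Itgb3, Prrx1, Twist1 and Foxc1 completed the 7 of 15 called higher (list median 1.40), and the list's lower call was Cdh2, N-cadherin, at -2.76. Under median centring 4 genes of the list were called higher. Of the fibroblast and collagen list 2 of 19 were called higher, Fap (2.28) and Col5a2 (1.95), beside 5.59% of all genes. The list's median was -0.07. Its defining markers were not called: Col1a1 had a mean of -1.15 and ran from -3.42 to 0.42, Col3a1 from -2.71 to 2.14, Lum from -1.86 to 0.97, Dcn from -1.87 to 0.95 and Pdgfra from -1.16 to 1.00. These genes crossed 0 between arrays. Under median centring, and without slide 1, no fibroblast gene was called higher, without CSP 1 the number was 1, and the list's median changed sign under several settings, to 0.44 under median centring. In the pericyte and smooth muscle list Cspg4, the NG2 proteoglycan, had a mean of 3.24 (2.68 to 4.07) and Pdgfrb, the receptor through which pericytes are recruited, 2.99 (2.25 to 3.84). Mcam was the remaining call upward (2.15). The contractile genes Cnn1, Des and Myl9 were called lower (-2.77, -1.54 and -1.49), Des with 4 of 6 arrays above background in Cy5. The list thus had 3 genes called higher and 3 lower of 15, beside 5.59% and 13.2% of all genes. With the slide as a random block, and without CSP 3 or without CSP 5, 1 gene of the list was called lower. Rgs5, Acta2 and Myh11 had means of -0.95, -0.14 and -1.29 and no call.

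Many genes that remodel or decorate the matrix were called higher. Of 19 proteases and inhibitors 11 were called higher and 1 lower, with a median of 1.74. Besides Mmp3 they included Timp1, the inhibitor of metalloproteinases (mean 4.38, 3.83 to 5.03), Spp1, osteopontin, a matrix protein that this list also holds (3.74, 1.43 to 5.92), Mmp10, Plaur, Adamts4, Mmp9, Serpine2, Plat and Adamts1. Plaur, the urokinase receptor, was the steadiest, at 3.25 to 3.56, while Mmp10 ran from 0.02 to 5.99 and was above background in Cy5 on 5 arrays. Timp2 was the lower call (-1.57), which was lost under median centring, with the slide block, with the scanner's processed signals, with the deposited values, without slide 1, and without any one of CSP 1 to CSP 4. Of 17 matricellular and growth factor binding genes 11 were called higher and 1 lower, with a median of 2.50. Ccn1 and Ccn2, secreted regulators of adhesion, had means of 4.43 (3.79 to 5.10) and 4.41 (3.33 to 4.88, over 5 arrays with a value). Mgp, matrix Gla protein, had 3.60 (2.90 to 4.68) and Grem1, an antagonist of BMP, 3.47 (3.13 to 3.78). Ccn4, Thbs1, Igfbp7, Tnc, Ltbp2, Thbs2 and Fstl1 were called too, and Ccn5 was lower (-2.10). Among 21 genes of actin and adhesion 6 were higher (Cald1 4.02, S100a6 3.01, Tpm4 2.67, Anxa1 2.58, Itga5 2.17 and Anxa2 1.97) and 1 lower, Tpm1, which had a mean of -4.40 (-5.20 to -3.91).

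Thyroglobulin was the follicular gene that stood above the pool. Tg, the precursor of thyroid hormone, had a mean of 4.11 ± 0.93 (SD, n = 6; 2.75 to 5.26), or 17.2-fold (adjusted p = 2.93e-05), in a comparison with a pool that holds no thyroid. Of 16 follicular genes tested it was the single call upward, and 3 were lower: Cdh16 (-4.13), which kidney shares, Slc26a4 (-3.32) and Slc5a8 (-2.73). The follicular transcription factors Nkx2-1 and Pax8 had means of 0.49 and 0.45, each above background in Cy5 on 4 arrays. Tshr, the receptor of thyrotropin, had -0.35 to 0.96 with 2 arrays above background in Cy5, and Slc5a5, the iodide symporter, was above it on none. Foxe1 did not reach the filter on dim probes. Of 22 epithelial genes none was called higher and 2 were lower: Ehf (-1.60, on a probe above background in Cy5 on no array, though another probe of the gene was on some) and Prom1, with no probe above it and at least 3.54-fold under the reference. Over all genes 5.59% were called higher and 13.2% lower. Without CSP 2 and without slide 1, 1 epithelial gene was called higher. For Ehf the authors' deposited values gave a mean of 0.93 with no call. Epcam, Cdh1, Krt8 and Krt18 had means of 0.29, 0.23, 0.61 and 1.02 and none was called; each fell below 0 on at least 1 array and above 1 on at least 1.

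Hormones of the neighbouring endocrine cells were among the genes furthest above the pool. Pth, parathyroid hormone, had a mean of 6.26 (5.20 to 6.86, median 6.54), or 76.7-fold (adjusted p = 3.01e-07), and was lowest on the arrays of slide 1, at 5.20 and 5.61. Calca, the gene of calcitonin made by C cells, had 5.17 (4.72 to 5.68). Chga, a granule protein of endocrine cells, was called at 2.95 (0.82 to 3.99), and Scg2 had 1.76 (-0.74 to 3.43) without a call. No other of the 11 genes of this list was called. Gcm2, the factor that specifies parathyroid, had a mean of 1.20, with 4 arrays above background in Cy5.

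Most leukocyte markers, and fewer of those of fat cells and Schwann cells, were called lower than the reference. Of 20 macrophage and pan-leukocyte genes 16 were called lower and none higher, with a median of -3.13. Ctss, a cathepsin of antigen-presenting cells, had the lowest mean of all measured in both channels, -7.36 (-8.11 to -6.60), or 165-fold under the reference. Lyz1 and Lyz2, lysozymes, had -5.26 and -5.12, and Ptprc, the common leukocyte antigen CD45, -5.35 (-5.98 to -4.77) with 1 array above background in Cy5. Cd68, Csf1r and C1qa were lower as well, at -1.33, -3.57 and -3.57. The pool contains spleen and thymus, so these ratios are against tissues rich in such cells. Under a strict filter, which keeps probes above background in both channels on all 6 arrays, 10 of the 12 tested were called lower. Of 10 adipocyte genes 4 were lower, beside 13.2% of all genes: Cfd, adipsin, at -6.07, then Cidec, Adipoq and Slc2a4. Plin1 had -1.41 and no call. Under the strict filter 4 adipocyte genes were tested and 2 called lower. Of 9 Schwann and neural crest genes 3 were lower, Mbp (-4.37) and Erbb3 (-2.31) among them, and Sox10 had 0.92 without a call.

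**Figure D2:**
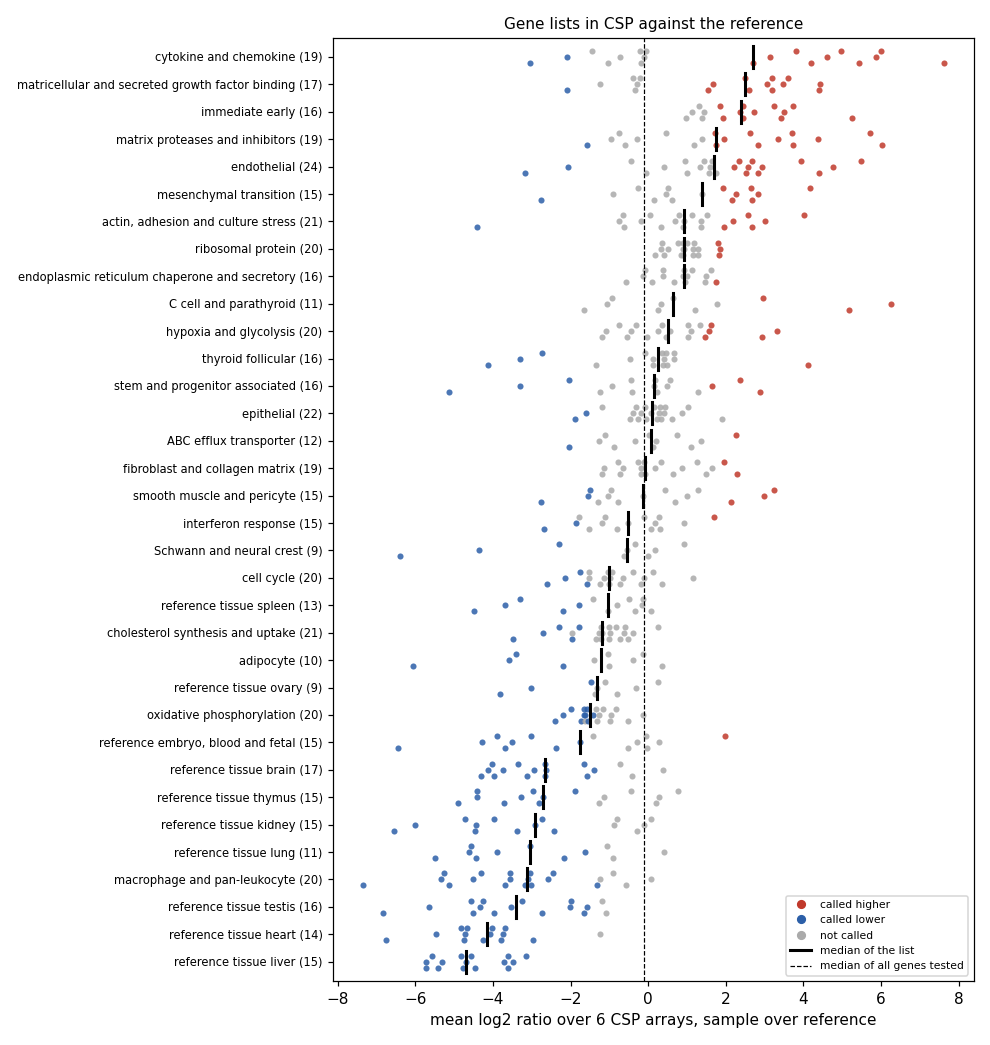
Mean log2 ratio over the 6 CSP arrays for every tested member of 34 gene lists, ordered by list median (black bar); red points were called higher, blue lower, grey neither, the number tested stands in parentheses, and the dashed line is the median of all genes. Cytokine genes had the highest list median, 2.69, and liver genes the lowest, -4.69.

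Genes typical of the organs in the pool were mostly called lower. Of 140 genes tested from 10 lists of such tissues 99 were called lower, where 13.2% of all genes were, 1 was higher and 40 neither, and 120 were below 0 on all 6 arrays. All 15 liver genes were lower (median -4.69): Hpx, hemopexin, had -5.74 (-6.34 to -5.20), Apoh -5.72, Ambp -5.57 and the fibrinogen chain Fga -5.43. Of 14 heart genes 13 were lower (median -4.16), with Pln, phospholamban, at -6.77 and the troponin Tnni3 at -5.46. Of 16 testis genes 14 were lower (median -3.40), with the sperm dehydrogenase Ldhc at -6.83 and the protamine Prm1 at -5.65. Brain genes followed with 14 of 17 (median -2.66; Snap25 -4.31, Stmn2 -4.13 over 5 arrays), kidney with 10 of 15 (-2.92; Kap -6.54, Slc12a1 -6.02), lung with 8 of 11 (-3.04; Scgb3a2 -5.49, Sftpc -4.57), and thymus with 9 of 15 (-2.73; Cd8b1 -4.89, Rag1 -4.41). Spleen (5 of 13, median -1.05; Jchain -4.50, Ms4a1 -3.68) and ovary (3 of 9, -1.31; Inha -3.83, Gdf9 -3.01) had the smallest shares, and under median centring 7 of the 9 ovary genes were called. With the scanner's processed signals 8 spleen and 7 ovary genes were lower. Of the genes that the strict filter on dim probes kept, 3 of 3 brain, 6 of 6 testis and 5 of 6 lung genes were called lower. So were 5 of 8 thymus genes and the 1 spleen and 1 ovary gene kept. Embryo, blood and fetal genes had 8 of 15 lower, among them Afp, alpha-fetoprotein, at -6.45, the globin Hba-a1 at -4.28 and the growth factor Igf2 at -3.69. Hmga2, a chromatin protein of proliferating embryonic and mesenchymal cells, was the single call upward (1.98, 1.38 to 4.00). The call ended under median centring, without the filter on dim probes, with the mean of probes and with the slide block. It was also lost without slide 1 and without any one of CSP 1, CSP 2, CSP 4 and CSP 5.

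Other genes among the 16 lowest of those above background in both channels on all 6 arrays are known from liver, heart and testis; Pln and Slc12a1 were above it in Cy5 on 4 and 5 arrays and are not among the 16. Pck1 and Fbp1, enzymes of gluconeogenesis, had means of -6.91 and -5.83. Cyp3a41a, Fgg, Fabp1, Slc27a2 and Mup1, of liver, had -6.71, -6.60, -6.42, -6.12 and -6.04, Mybpc3, of heart muscle, -5.78, and Mael, of germ cells, -6.05. On each of the 16 the 2 arrays of slide 3 lay below those of slide 1. Of the genes called lower, 1400 were above background in Cy5 on all 6 arrays and 158 on none. The bounds were largest for genes of brain and kidney: Kcnd2, a potassium channel of neurons, was at least 34.2-fold lower, and Slc13a1, a sulfate transporter of kidney, at least 32.2-fold. In all, 687 genes were above background in Cy3 on all 6 arrays and in Cy5 on none, and 239 of them had a bound past 2-fold. The converse held for 1 gene.

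Many organ genes were still above background in Cy5. Among genes of the organ lists above background in Cy3 on all 6 arrays, 68 were above it in Cy5 on all 6, 49 on 1 to 5 and 12 on none. The 68 had a median log2 ratio of -4.05 and a median Cy3 level of 14.4 on the log2 scale per channel. The part of the bright Cy3 signal in their Cy5 values was not tested. The ratios of the 12 genes not above background in Cy5 are limited by that background.

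Of the pumps, the gene of P-glycoprotein stood above the pool. Abcb1a had a mean of 2.26 (1.60 to 2.87, median 2.26), or 4.78-fold (adjusted p = 0.000176), and was above 0 on all 6 arrays. Of 12 ABC genes tested 1 was called higher and 1 lower, beside 5.59% and 13.2% of all genes. Under median centring no ABC gene was called higher and 4 were lower. Abcb1b, a close copy of Abcb1a, had 0.75 (0.49 to 0.94) without a call. As near-identical genes the pair may share label on the array. Abcc4, an exporter of cyclic nucleotides, had 1.37 (0.94 to 2.60) and was not called, and Abca3, of surfactant, was the lower call (-2.04). Abcg2, the pump most often tied to the side population and named here after its values were seen, had a mean of -0.34 (-1.07 to 0.87, adjusted p = 1). Abcg2 was thus not called different from the pool by more than 2-fold, which does not show equal levels. Of 16 stem and progenitor genes 3 were higher and 3 lower, with a median of 0.16: Klf4 (2.88, 2.21 to 3.72), Cd34, which endothelial cells share (2.36, 1.16 to 4.25), and Nes (1.65) against Aldh1a1 (-5.13), Hnf4a (-3.30) and Ly6a (-2.05). Without slide 1 the counts were 1 and 4, and with the slide block 2 and 2. Sox2 was above background in Cy5 on no array, at least 2.27-fold under the reference without a call, and Pou5f1 had 0.03 to 0.26.

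Metabolic lists had medians closer to 0 than most organ lists. Of 20 genes of the respiratory chain and ATP synthase 10 were called lower and none higher, with a median of -1.49, and 19 of 20 were below 0 on all 6 arrays. Uqcrc1 had a mean of -2.40 (-2.68 to -1.79), Sdhb -2.19, Sdha -1.99 and Ndufs1 -1.74. Under median centring 2 were called and the list's median was -0.56. Ribosomal protein genes ran the other way, with 3 of 20 called, Rps3 (1.82) and Rps6 (1.79) among them, and a median of 0.92; under median centring 18 were called and the median was 2.12. Of 21 genes of cholesterol synthesis and uptake 5 were lower and none higher (median -1.20): Tm7sf2 (-3.48), Hsd17b7 (-2.71), Dhcr7 (-2.31), Hmgcs1 (-1.96) and Sqle (-1.78), against 8 lower under median centring. Of 20 hypoxia and glycolysis genes 5 were higher: Ankrd37 (3.32), P4ha2 (2.94), Egln3 (1.61), Slc2a1, the glucose transporter (1.57), and P4ha1 (1.47), against 9 under median centring and 3 without slide 1, without CSP 5 or without CSP 6. Of 16 chaperone genes Manf was called (1.75), and the median was 0.91; median centring called 7, and without slide 1 none was called. Of 15 interferon response genes Ifi44 was higher (1.71) and 2 were lower, Ifit2 (-1.86) among them. Over all genes 5.59% were called higher and 13.2% lower, so the interferon counts and the single chaperone call were near these shares. Under median centring or without slide 1 none of the interferon genes was higher and 4 were lower. Without CSP 4 or CSP 6, or with the slide block, 1 was lower. Of 20 cell cycle genes 4 were lower and none higher, with a median of -0.999: Mki67 (-2.60, -4.21 to -1.06), Rrm2 (-2.14), Cdc20 (-1.75) and Top2a (-1.57). Without CSP 6 the number was 7, without CSP 1, CSP 3 or CSP 5 and with the slide block it was 2, and without slide 1 it was 1.

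The CMP arrays give the same ratios for thyroid cells outside the side population gate. CSP was tested against CMP in a fit of the 9 arrays (limma), where the reference cancels: of 20246 genes 1938 were higher in CSP (9.57%) and 1708 lower (8.44%). Higher calls were 53.2% of all calls, and 34.5% under median centring. Without CMP 1 the counts were 1165 and 1141, and without CMP 2 they were 1149 and 1129. Among the 1248 genes called above the reference, 564 were also higher in CSP than in CMP, 15 lower and 669 neither, and their median log2 ratio was 2.02 in CSP and 1.15 in CMP. Among the 2748 genes called below it that entered this fit, 99 were higher than in CMP, 380 lower and 2269 neither, with medians of -2.33 and -2.39.

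**Figure D3:**
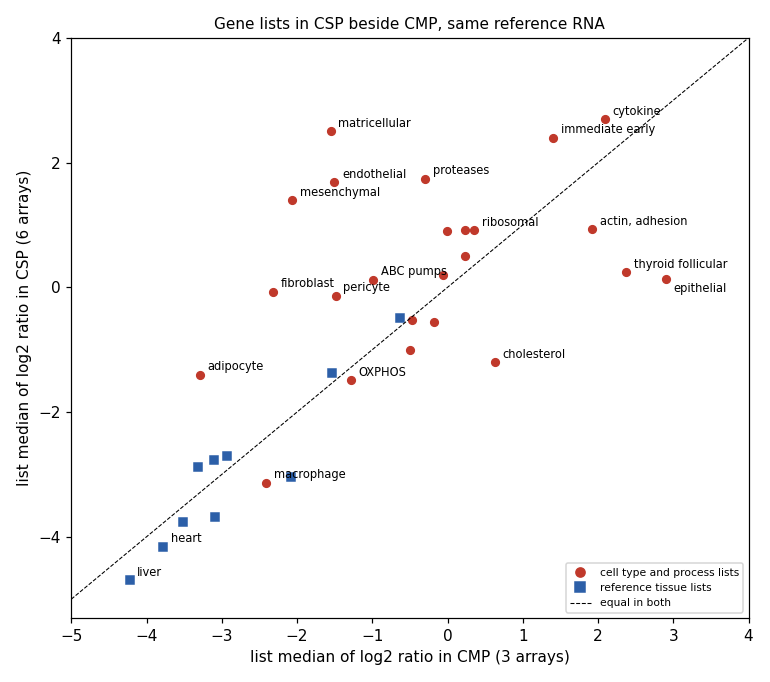
Median log2 ratio of each of 34 gene lists in CSP (vertical, 6 arrays) against CMP (horizontal, 3 arrays), both over the same reference; red circles are cell type and process lists, blue squares the lists of organs in the pool, and the dashed line marks equal medians. Organ lists lie near the line, while the endothelial list stands at 1.68 in CSP and -1.50 in CMP and the epithelial list at 0.14 and 2.90.

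Vascular and stromal genes stood apart. Of 24 endothelial genes 21 were higher in CSP than in CMP and none lower, with list medians of 1.68 and -1.50. Of 15 mesenchymal transition genes 13 were higher (1.40 and -2.07), and of 19 fibroblast genes 16 were higher and 1, Fn1, lower (-0.07 and -2.31). Col1a1 and Col3a1 had means of -3.78 and -3.75 in CMP. Among genes above the reference, the largest differences were of Tm4sf1, a surface protein of endothelium (CSP 4.49, CMP -1.75, difference 6.25, 95% interval 5.48 to 7.01, adjusted p = 2.52e-06), and of Mctp1, Ackr1, Ctla2b, Igfbp7, Mgp, Ctla2a and Vim (5.46 to 6.17). No CSP array overlapped a CMP array on these 8 genes, which were chosen for the size of this difference. Within slide 4, which holds CSP 5, CSP 6 and CMP 2, the median difference was 3.92 for the endothelial list, 2.81 for the mesenchymal and 3.26 for the fibroblast list. Pdgfrb (CSP 2.99, CMP -1.91) and Cspg4 (3.24 and -0.55) differed in the same direction.

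Epithelial and sterol genes differed the other way. All 21 epithelial genes tested were lower in CSP than in CMP, with list medians of 0.14 and 2.90. The main filter of this fit could let in genes dim in CSP through their CMP signal. Under the strict filter, here Cy5 above background on all 9 arrays, 11 epithelial genes were tested and all 11 were lower. Of 16 follicular genes 11 were lower (7 with the deposited values, 2 under the strict filter) and 1 higher, Dio2, and the list's medians were 0.24 and 2.37. Tg itself was not called: its mean was 4.11 in CSP and 5.29 in CMP, a difference of -1.18 (adjusted p = 0.14). Of 21 cholesterol genes 18 were lower in CSP and none higher (-1.20 and 0.63); Hmgcs1 had -1.96 and -0.04. Within slide 4 the median differences were -2.26, -2.25 and -1.40 for the epithelial, follicular and cholesterol lists. Of genes above the reference, Anxa1 was the most different downward (CSP 2.58, CMP 5.63, difference -3.05, 95% interval -4.17 to -1.93, adjusted p = 0.00139), followed by Anxa3, Moxd1, Tuba6, Mbip, Fer1l3, Epha2 and Klf6 (-2.74 to -1.01).

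Inflammatory genes differed in both directions, on the lower side in part through genes dim in CSP. Most immediate early genes were not called different. Il6 was 3.73 in CMP (3.66 to 3.83) against 7.63 in CSP, a difference of 3.90 (adjusted p = 3.07e-06) with no overlap between the arrays. Mmp3 differed by 5.35, Sele by 4.81, Lincr by 4.46 and Has1 by 3.96, all called. Of 19 cytokine genes 9 were higher in CSP and 6 lower, and the 6 were Tnf, Ccl20, Il1a, Cx3cl1, Il1b and Il1rn. Tnf and Il1b had 2.51 and 2.00 in CMP. In CSP Cy5 was above background on 1 array for Tnf and Il1a and on none for Il1b and Ccl20, so that their levels there were at or near background. Tnf, Il1a, Il1b and Ccl20 passed the filter of this fit through the CMP arrays, so their lower calls are in part set by that filter. With the deposited values 1 cytokine gene was lower, and under the strict filter 2. Fosl1 (5.24 and 4.61), Atf3 (3.72 and 3.55), Fos (3.50 and 3.87) and Ier3 (3.42 and 3.49) were not called different; for Fosl1 the 95% interval of the difference was 0.08 to 1.19. Of the 16 genes of that list 5 were higher in CSP and 1 lower; without CMP 2 the counts were 2 and none, and without CMP 3 they were 3 and 1. Pth (6.26 and 6.05, 95% interval of the difference -0.62 to 1.04) and Chga (2.95 and 3.20, -1.51 to 1.00) were not called, and Calca was higher in CSP (5.17 and 3.94, adjusted p = 0.0139). Ccn1 had 4.43 and 4.05. The 8 genes above the pool whose means were closest in CSP and CMP were Sec22b, Sox15, Krt84, Smurf1, Cars, Srxn1, Nabp2 and Mapk6, with differences of -0.02 to 0.02 and 95% intervals within -0.71 to 0.76.

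Several pumps were higher in CSP than in CMP. Of 11 ABC genes in this fit 6 were higher in CSP than in CMP and 2 lower. Abcb1a was -0.99 in CMP (-1.23 to -0.59), 3.24 below CSP (adjusted p = 1.64e-05), and Abcb1b was -2.30, 3.05 below. Abcg2 was -3.32 in CMP (-3.50 to -3.09), so that CSP exceeded it by 2.98 (adjusted p = 0.00034) while not called different from the pool. Abcc4, Abcg1 and Abcc3 were the further 3 higher and Abca2 and Abca3 the 2 lower. Cd34 was higher in CSP (2.36 and -1.90), and of the other stem and progenitor genes Sox9 was lower (0.49 and 3.20).

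Of 120 organ genes in this fit 5 were higher in CSP than in CMP (4.17%) and 7 lower (5.83%), beside 9.57% and 8.44% of all genes. All 15 liver genes missed the threshold (medians -4.69 in CSP and -4.22 in CMP). Of the 14 heart genes 1 was called, Myl7, lower in CSP (-2.96 and -0.67). Lrp2 and Napsa, which thyroid epithelium shares with kidney and lung, were lower in CSP (-4.72 and -2.19, and -4.63 and -2.07). The respiratory chain list had medians of -1.49 and -1.28 with Cycs as the single call. Among leukocyte genes Ctss differed most, by -3.69 (-7.36 and -3.67, adjusted p = 8.39e-05); Cd68, C1qa, Adgre1, Lyz1 and Lyz2 were the further 5 lower in CSP, and Cd14 was higher. The number of leukocyte genes lower in CSP was 13 under median centring, 12 without slide 1, 11 with the scanner's processed signals, 4 without CSP 3, CSP 4, CSP 5, CMP 1 or CMP 3, 3 with all 18 arrays and 1 with the replicate block. All 20 cell cycle genes missed the threshold (medians -0.999 and -0.50, lowest adjusted p 0.084 for Tyms).

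Keratins, a collagen and other genes of epithelium and stroma were among the most variable over the 6 CSP arrays. Krt8, a keratin of simple epithelia, had the largest SD of all genes above background in Cy5 on all arrays, 2.08: its log2 ratios were -1.07, -2.27, 1.61, 0.59, 1.16 and 3.66 on CSP 1 to CSP 6. Krt18 (SD 1.83), Mal2 (1.81), Plet1 (1.70) and Aif1l (1.70) had their lowest value on CSP 2 and their highest on CSP 6 too. On CSP 6 Krt8 was still under the CMP range of 5.03 to 5.77. Col3a1, a fibrillar collagen, ran otherwise (0.46, 2.14, -2.71, -1.11, -0.58 and 0.71), highest on CSP 2 and lowest on CSP 3. Tgfbi and Dio3, which inactivates thyroid hormone, were lowest on the arrays of slide 3 (-2.41 and -1.76, and -0.30 and 0.02). Spp1 was lowest on slide 1 and highest on CSP 4, at 5.92, and Cxcl10, an interferon-induced chemokine, ran from -2.34 to 2.36.

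**Figure D4:**
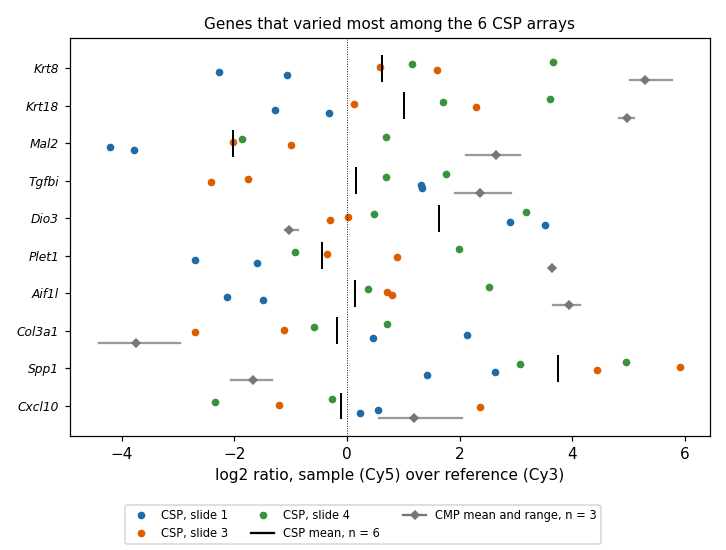
Log2 ratio of sample over reference on each CSP array, coloured by slide, for the 10 genes with the largest SD; black bars are the CSP mean and grey diamonds with lines the CMP mean and range. Krt8 runs from -2.27 on CSP 2 to 3.66 on CSP 6, below the CMP range of 5.03 to 5.77.

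List medians moved with single arrays. The epithelial median ran from -1.30 on CSP 2 to 1.74 on CSP 6, and without CSP 6 the median over genes of the array means turned from 0.11 to -0.25. The cell cycle median was lowest on CSP 5 (-2.01) and highest on CSP 6 (0.18). Endothelial medians were 0.90 and 0.92 on CSP 4 and CSP 6 and 1.76 to 2.56 on the other 4. Fibroblast medians ran from -1.02 on CSP 3 to 1.00 on CSP 2. The immediate early and respiratory chain lists kept within 1.80 to 2.62 and -1.69 to -1.18. Liver medians followed the slide, at -4.16 and -4.08 on slide 1, -5.09 and -5.29 on slide 3 and -4.68 and -4.76 on slide 4, as did those of leukocyte genes (-2.71 and -2.60, then -3.62 and -3.62, then -3.20 and -3.22).

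**Figure D5:**
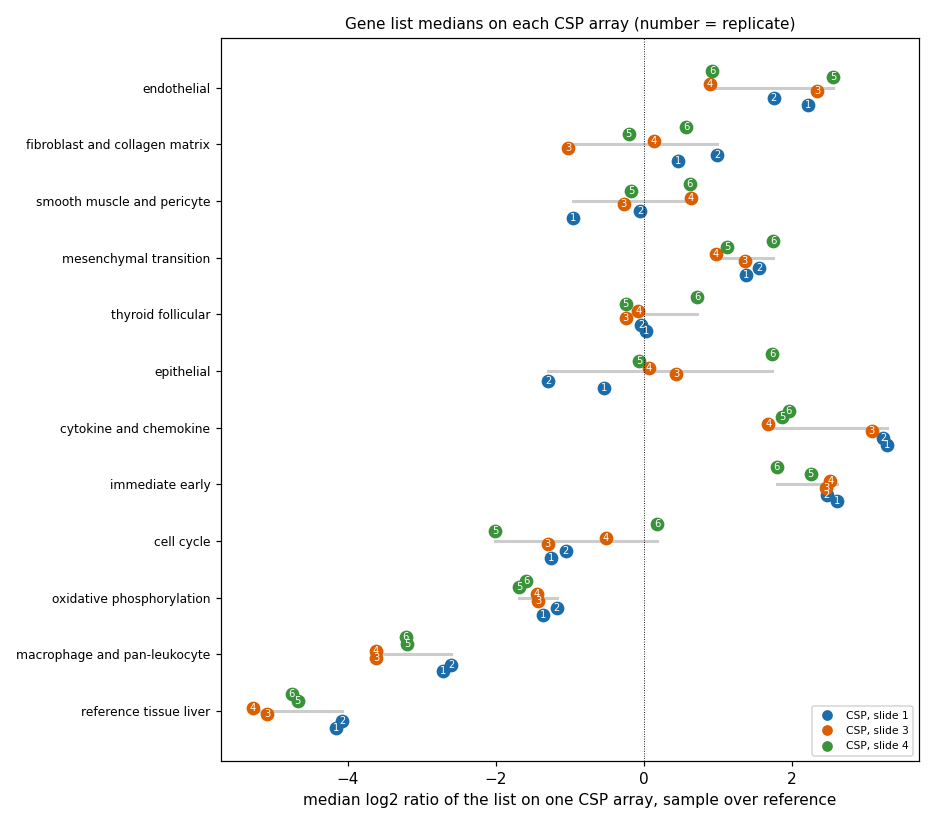
Median log2 ratio of 12 gene lists on each of the 6 CSP arrays, numbered by replicate and coloured by slide, with the grey line from the lowest to the highest array. The epithelial list runs from -1.30 on CSP 2 to 1.74 on CSP 6, while the respiratory chain list stays within -1.69 to -1.18.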

How the data were processed

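RNA of sorted thyroid cells (Cy5) and a common tissue reference (Cy3) was hybridised to 18 two-colour arrays, of which the 6 CSP and 3 CMP arrays were used for the main tests. The authors deposited, per the file headers, scanner intensity values per spot and channel from Agilent Feature Extraction (9.5.1.1 in the headers, 8.5.1.1 per the submitters' processing notes). A table of log2 values was also deposited by the authors, with its scale and centring unstated. It served as an alternative at group level only, because 4 CSP columns correlated best with the scanner file of another CSP array; array numbers here follow the scanner files.

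Mean signals were background-corrected (limma 3.58.1, R 4.3.3; normexp, offset 50) and a loess curve was taken off each array's log ratios; control spots carried weight 0 in it. Outlier spots were set missing and spots of a probe averaged. For the test against the reference a gene took its brightest probe. That probe had to be well above background in either channel on at least 3 of the 6 CSP arrays. It also needed a value on at least 4 of them. The fit against CMP instead asked for Cy5 well above background on at least 3 of the CSP and CMP arrays together. A gene dim in CSP could thus enter that fit through the CMP arrays. In naming, 23075 probes were named through RefSeq accessions and 18099 kept the name in the file. CSP was tested against the reference with limma's treat test at a 2-fold margin, and against CMP with lmFit and eBayes, with Benjamini-Hochberg adjustment over all genes (adjusted p under 0.05, two-sided). The scripts were tested on simulated data. The number of arrays limits the precision. P-values measure the spread between samples of one reference RNA, which may in part be technical, and leave out the spread of the reference.

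A fold given as "at least" applies to a gene dim in Cy5 on all arrays and is open to dye bias. It sets the gene's Cy3 level against, per array, the higher of the lowest Cy5 signal well above background and the gene's own. It compares means over the arrays without their spread, so it can pass 2-fold in a gene without a call. Named genes were the 16 highest means (called, above 0 and above background in Cy5 on all 6 arrays) and the 16 lowest (called, below 0 and above background in both channels on all 6), accessions and clone names passed over. From each list came the 4 members with the largest absolute mean among those above background in the brighter channel on all 6 arrays. Defining markers, the 8 most different and 8 closest to CMP, and the 10 most variable were named too. Other members were named after their values were seen, and some genes are not reported here. The members and lists were chosen with earlier results of these data known.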

Additional observations from a re-analysis of the deposited data

Results flagged for a closer look

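On 15 of 284 gene and list values 1 of the 6 CSP arrays stood apart from the others, by its gap to the nearest array as a share of the range. Chance alone flags about 1 in 20, and 15 of 284 is near that rate. Of the 15, 6 were on CSP 6, 5 on CSP 4, 3 on CSP 3 and 1 on CSP 5. On CSP 6 the flagged follicular values lay above those of the other arrays. Pax8 had a log2 ratio of 1.70 (next array 0.54) and Slc5a8 -1.01 (next -2.78), still below the reference. The median of the follicular list was 0.73 (next 0.03). Hmga2 was 4.00 on CSP 6 (next 2.02), Myl7 -0.35 (next -2.86) and Uqcrc1 -1.79 (next -2.37). On CSP 4, Pln had -4.91 (next -6.80), Myh11 -0.45 (next -1.26) and Krt84 1.80 (next 1.55). The C cell and parathyroid median was highest on CSP 4 at 1.92 (next 0.79), and the ribosomal protein median lowest at 0.59 (next 0.94). On CSP 3, Il1a had 1.35 (next -0.28), Plaur 3.56 (next 3.36), and the matricellular median 0.95 (next 2.17). Abcc4 was 2.60 on CSP 5 (next 1.24).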

How the results depend on the processing

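Main counts were 1248 genes higher and 2946 lower than the reference, and 1938 higher and 1708 lower than CMP. Median centring gave 812 and 5059 against the reference and 2592 lower than CMP. The strict filter on dim probes, which tested 11622 genes, gave 1427 lower than the reference and 1078 lower than CMP. The authors' deposited values gave 2362 higher than the reference. A test against 0 gave 6136 and 8481. Within slide 4, limma called 0 and 0 genes against CMP, with 2441 and 1890 at an unadjusted p under 0.05; it holds 2 CSP arrays and 1 CMP array. Leaving out each CSP array gave 1111 to 1219 higher and 2767 to 2860 lower than the reference; against CMP, leaving out each CSP or CMP array gave 1149 to 1997 higher and 1129 to 1798 lower. Without slide 1, an alternative chosen after seeing the data, 1029 and 2707 differed from the reference and 1569 and 1268 from CMP. By the scanner file numbers, deviations of same-numbered CSP and CMP arrays correlated at 0.01, -0.24 and -0.23. The numbering of the CSP files is not settled, so these values cannot tell whether samples were paired. The replicate block, by the same numbers, gave 1309 higher and 1232 lower than CMP. Of 252 genes named, 60 lost a call against the reference under some setting, and 141 of 247 a difference from CMP, within slide 4 included. The direction of a called gene reversed once, for Ehf, at 0.93 in the deposited values. Dim Cy5 signals limit the lower side, since 158 genes called lower were not above background in Cy5 on any array.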
